A study of Mus musculus with 8 samples.

Results

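The tripartite motif (TRIM) genes were followed in mouse dendritic cells grown from bone marrow, with and without the microRNA miR-155 and with and without bacterial lipopolysaccharide (LPS). Members were all gene names on the array made of Trim and a number, with any trailing letter. This rule found 56 genes measured by 106 probes, out of 27398 gene names. To be tested, a gene needed a probe that the scanner software marked as well above background on both arrays in 1 or more groups, and 45 of the 56 TRIM genes had one, among 15401 genes in all. The other 11, Trim7, Trim10, Trim15, Trim17, Trim31, Trim42, Trim50, Trim52, Trim60, Trim61 and Trim63, were not well above background on both arrays of any group. Of these 11, 9 were not well above background on a single array.

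All cells came from male C57BL/6Jax mice, were grown from marrow in GM-CSF (40 ng/mL, 7 days), a growth factor that drives dendritic cell formation, and were sorted. The 4 groups, with 2 one-colour arrays each, were miR-155 knockout (KO) cells given 100 ng/mL LPS for 16 h, KO unstimulated cells, wild type (WT) cells given the same LPS treatment, and WT unstimulated cells. The LPS groups were sorted as positive for the activation marker CD86 and the unstimulated groups as negative for it, so the LPS comparisons are also comparisons of sort gates, and the effects of LPS and of the gate cannot be told apart. Nothing in the labels tells whether the 2 replicates of a group were separate mice or cultures, and p-values therefore measure the spread between these arrays, which may be technical. The microRNA itself was not checked on these arrays. Its mature strand is shown to identify the deleted gene (mouse RefSeq, GRCm38.p6, chr16:84714143-84714165), with the seed, bases 2 to 8, in capitals.
mmu-miR-155-5p: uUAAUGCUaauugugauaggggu

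Most TRIM proteins have a RING finger, B-box zinc fingers and a coiled coil, and most act as ubiquitin ligases, but some lack a RING finger. Their C-terminal domains divide them into classes, of which the SPRY class is the most numerous and includes the retrovirus restriction factor TRIM5 of primates. Many are known as interferon-induced antiviral proteins or as regulators of innate immune signalling, and LPS acts on dendritic cells through Toll-like receptor 4, which also triggers type I interferon.

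The arrays differed somewhat in quality. The share of spots well above background was 51% and 50.8% on the WT unstimulated arrays and 54.5% to 58.3% on the others. Of the 45 TRIM genes 40 were so on all 8 arrays. The signal floor was also higher on the WT unstimulated arrays. Trim60, well above background on no array, had -6.88 and -6.59 there against -7.84 and -7.37 in KO unstimulated arrays, as log2 relative to the 75th percentile. Of 14 dendritic cell markers, all 14 passed the filter and 13 were well above background on every array. Markers of other cells also moved with LPS: among stromal markers 3 of 4 measured rose in each genotype, among macrophage markers 2 of 10 rose and 4 fell, among mast cell and basophil markers 3 of 5 fell, among monocyte markers 2 of 4 fell, among plasmacytoid dendritic cell markers 2 of 3 rose, and both measured NK cell markers fell. Of the 2 measured eosinophil markers 1 fell in KO cells and 2 in WT cells. In each genotype 1 of 4 neutrophil and 1 of 3 T cell markers rose and 1 of 3 B cell markers fell, with 1 B cell marker higher in KO cells, and no erythroid or muscle marker was called. Summed on a linear scale on which 1 is the 75th percentile of an array, the stromal markers reached 2.19 to 12.3 in KO LPS arrays and 0.127 to 0.130 in KO unstimulated arrays, and 2.22 to 6.00 in WT LPS arrays against 0.0946 to 0.184 in WT unstimulated arrays. The macrophage sums were 865 to 914 in KO LPS, 216 to 269 in KO unstimulated, 711 to 1088 in WT LPS and 235 to 295 in WT unstimulated arrays. The plasmacytoid dendritic cell sums were 170 to 243 in KO LPS, 14.5 to 17.3 in KO unstimulated, 217 to 273 in WT LPS and 24.8 to 25.3 in WT unstimulated arrays. A linear sum follows its brightest markers and not each marker of a list. Over the 10 macrophage markers the median log2 difference was -1.04 in KO cells and -1.19 in WT cells, opposite to the sums. Of the plasmacytoid markers, Bst2 rose by 3.79 in KO cells and 3.35 in WT cells, and Tcf4 by 2.06 and 1.65. Spib had -1.85 in KO cells and -1.66 in WT cells and was not called. The erythroid markers past the filter summed to 6.14 and 0.284 in the KO LPS arrays and to 7.58 and 0.143 in the WT LPS arrays, with replicate 1 first, against at most 0.246 in the unstimulated arrays. The defining markers Epx, Ms4a2, Elane, Cd79a, Pax5, Cd3d, Cd3g and Gzma of eosinophils, mast cells, neutrophils, B cells, T cells and NK cells were well above background on no array. The part of these cells in the TRIM results was not tested, and in bulk RNA fewer cells of a type and less RNA per cell cannot be told apart.

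LPS shifted part of the measured family, mostly upwards and mostly in the SPRY class, which holds a chromosome 7 cluster described below. That cluster gave 6 of the rises in KO cells and 7 of those in WT cells. Outside it, rises and falls of TRIM genes were near the shares of all genes. In KO cells 11 of 45 TRIM genes rose and 4 fell, and in WT cells 10 rose and 4 fell. Genes were called at an adjusted p under 0.05 in limma with Benjamini-Hochberg adjustment over all 15401 genes. Among all genes 10.4% rose and 10.5% fell in KO cells, and 9.48% rose and 10.7% fell in WT cells, which is 20.8% and 20.2% in either direction. Together 33.3% of the TRIM genes were called in KO cells and 31.1% in WT cells. The median LPS response, as a log2 difference of LPS minus unstimulated, was 0.49 over the TRIM genes and 0.05 over all genes in KO cells, and 0.28 and 0.00 in WT cells. Of the called TRIM genes, 9 rose in both genotypes, 4 fell in both, Trim25 and Trim69 were called in KO cells alone, and Trim12c in WT cells alone. The difference between the genotypes was called for none of these 3. The arrays of the LPS and the unstimulated group did not overlap for 34 TRIM genes in KO cells, where 63.6% of all genes did the same, and for 32 in WT cells, where 62.0% did.

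**Figure D1:**
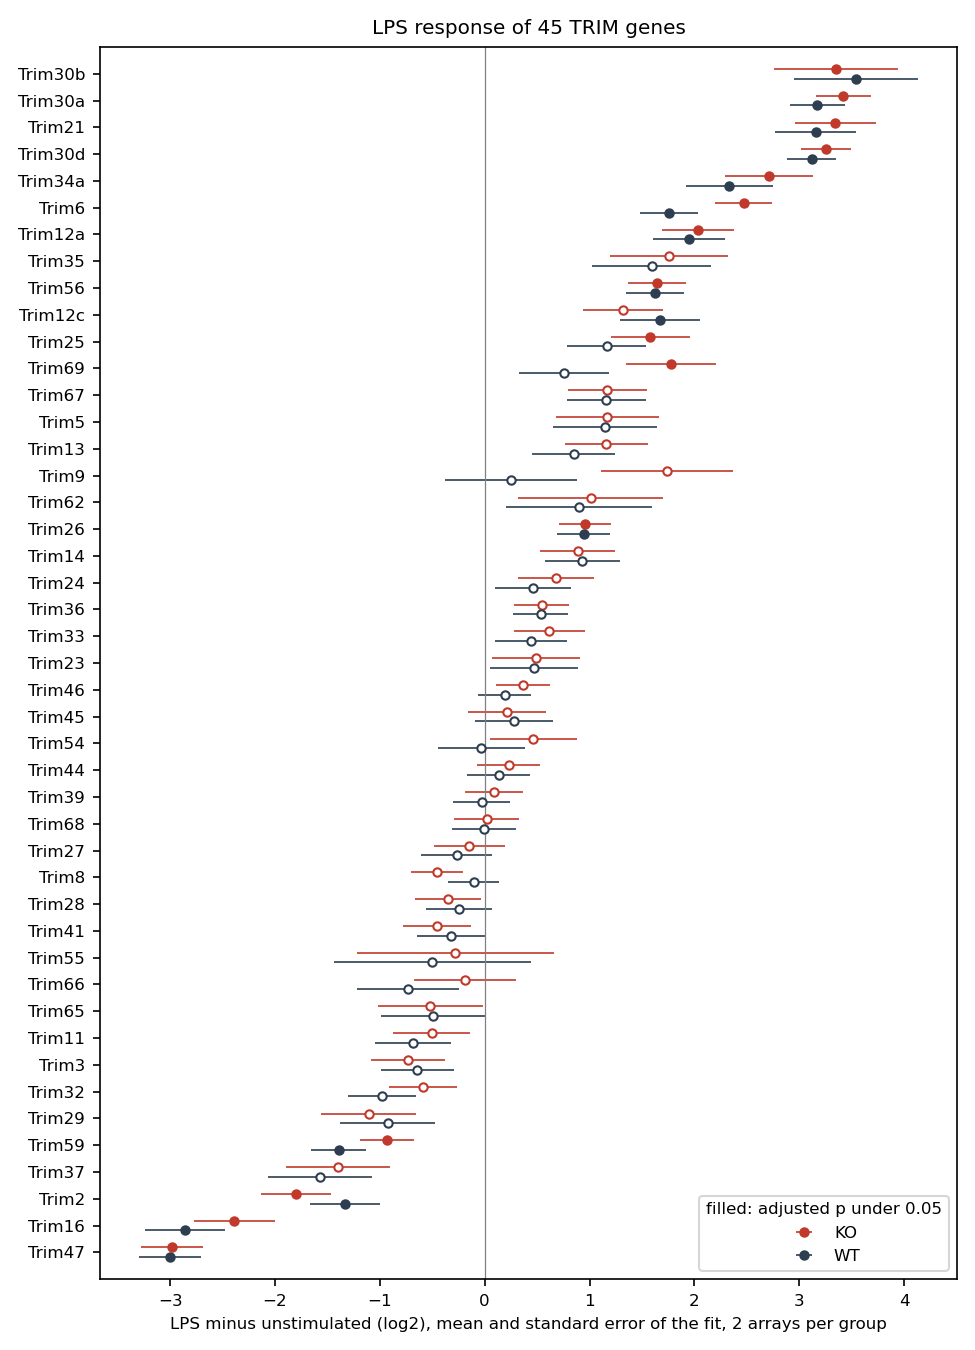
Log2 difference of LPS minus unstimulated for each of the 45 TRIM genes past the filter, in KO cells (red, upper point) and WT cells (dark, lower point), with the standard error of the limma fit and 2 arrays per group. Filled points passed an adjusted p of 0.05. Trim30b, Trim30a, Trim21 and Trim30d stand at the top with differences over 3 in both genotypes, and Trim47 and Trim16 at the bottom.

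The slide arrangement touched both LPS comparisons. On slide 1 were WT unstimulated replicates 1 and 2, with replicate 2 of KO unstimulated and of WT LPS, and on slide 2 the other 4 arrays. With slide as a term, 9 TRIM genes rose and 3 fell in KO cells, and 8 rose and 3 fell in WT cells. Within slide 2 alone, where KO cells had 1 unstimulated and 2 LPS arrays, 2 rose and none fell, and all 15 genes called before kept their direction. Within slide 1 alone, where WT cells had 2 unstimulated and 1 LPS array, 6 rose and 2 fell, and all 14 kept their direction. Leaving out any 1 of the 8 arrays left 8 of the 15 calls in place in KO cells (Trim6, Trim12a, Trim16, Trim21, Trim30a, Trim30d, Trim34a and Trim47) and 7 of the 14 in WT cells (Trim6, Trim16, Trim21, Trim30a, Trim30b, Trim30d and Trim47).

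The values that follow are scaled log2 signals, in which 0 is the 75th percentile of the array. They can be compared between arrays for 1 probe, not between probes. Two-sided adjusted p-values are from limma with 2 arrays per group, and errors are standard errors of the fit.

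The Trim30 genes were among the strongest responders. Trim30a, a mouse protein that lowers Toll-like receptor signalling by removing the adaptors TAB2 and TAB3, had 5.12 and 4.69 in KO LPS arrays against 1.56 and 1.41 in KO unstimulated arrays, and 4.87 and 4.73 in WT LPS arrays against 1.55 and 1.70 in WT unstimulated arrays. Every LPS array lay far above every unstimulated array, and the rise was 3.42 ± 0.26 (10.7-fold, adjusted p = 0.000480) in KO cells and 3.17 ± 0.26 (9.02-fold, adjusted p = 0.000780) in WT cells. Its neighbour Trim30d had 4.55 and 4.34 in KO LPS arrays against 1.21 and 1.17 in KO unstimulated arrays, and 4.33 and 4.22 in WT LPS arrays against 1.18 and 1.14 in WT unstimulated arrays. It gave the closest replicates of the cluster and rose by 3.26 ± 0.24 in KO cells (adjusted p = 0.000393) and by 3.12 ± 0.24 in WT cells (adjusted p = 0.000553). Trim30b had 0.73 and -1.04 in KO LPS arrays against -3.08 and -3.94 in KO unstimulated arrays, and 0.10 and -0.22 in WT LPS arrays against -3.81 and -3.39 in WT unstimulated arrays. Its groups did not overlap, but its KO LPS arrays were far apart. It rose by 3.35 ± 0.59 in KO cells (adjusted p = 0.00964) and by 3.54 ± 0.59 in WT cells (adjusted p = 0.00860). Without KO unstimulated replicate 2 the adjusted p in KO cells was 0.0685.

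The probes of these paralogs are shown because close relatives can share signal. Coordinates are those of the array files (mm9), 5′ to 3′ on the minus strand of chromosome 7: chr7:111560170-111560747 for Trim30a, a span longer than the 60-base probe, chr7:111503964-111504023 for Trim30b and chr7:111620805-111620864 for Trim30d. Among 2959 pairs of probes from different TRIM genes past the filter, the longest run of identical bases was 11. Binding of a probe to the RNA of a paralog was not measured.
Trim30a probe: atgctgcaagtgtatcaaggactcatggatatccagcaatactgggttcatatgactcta
Trim30b probe: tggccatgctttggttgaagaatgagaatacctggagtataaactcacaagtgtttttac
Trim30d probe: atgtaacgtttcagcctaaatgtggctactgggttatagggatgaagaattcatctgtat

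The Trim30 genes end a cluster on chromosome 7 in which 8 TRIM genes lie within 237.8 kb, between positions 111383074 and 111620864, in the order Trim6, Trim34a, Trim5, Trim12a, Trim12c, Trim30b, Trim30a and Trim30d. All 8 were assigned to the SPRY class, without a check of the domains of each protein, and all 8 were measured. In KO cells 6 of the 8 rose, with a median log2 difference of 2.59, and in WT cells 7 of the 8 rose, with a median of 2.14. Of the 37 measured TRIM genes elsewhere, 5 rose and 4 fell in KO cells with a median of 0.21, and 3 rose and 4 fell in WT cells with a median of -0.01. Among all genes 10.4% rose and 10.5% fell in KO cells, and 9.48% rose and 10.7% fell in WT cells. The TRIM genes outside the cluster were thus near the shares of all genes. The cluster was described after its values were known.

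Trim6, whose human counterpart makes free ubiquitin chains that activate the kinase IKKε, had -0.47 and -0.51 in KO LPS arrays against -2.95 and -2.96 in KO unstimulated arrays, and -0.95 and -0.46 in WT LPS arrays against -2.60 and -2.31 in WT unstimulated arrays. The LPS arrays lay above the unstimulated ones in both genotypes, by 2.47 ± 0.27 in KO cells (5.54-fold, adjusted p = 0.00178) and 1.76 ± 0.27 in WT cells (3.38-fold, adjusted p = 0.00661). The difference between the responses, 0.71 ± 0.39, had an unadjusted p of 0.110 and an adjusted p of 0.99999. Trim34a had 2.25 and 2.46 in KO LPS arrays against -0.85 and 0.13 in KO unstimulated arrays, and 2.14 and 2.74 in WT LPS arrays against -0.17 and 0.39 in WT unstimulated arrays. It rose by 2.71 ± 0.42 in KO cells (adjusted p = 0.00576) and by 2.33 ± 0.42 in WT cells (adjusted p = 0.0107). In WT cells its adjusted p was 0.0568 without WT unstimulated replicate 1 and 0.0626 without WT LPS replicate 2.

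Trim12a and Trim12c belong to the mouse relatives of primate TRIM5, and Trim12c is known to act with the adaptor TRAF6 in interferon and NF-κB signalling. Trim12a had 4.30 and 4.20 in KO LPS arrays against 2.01 and 2.43 in KO unstimulated arrays, and 4.21 and 4.61 in WT LPS arrays against 2.08 and 2.84 in WT unstimulated arrays. The groups did not overlap, and the rise was 2.03 ± 0.35 in KO cells (adjusted p = 0.00837) and 1.95 ± 0.35 in WT cells (adjusted p = 0.0105), with 0.0639 in WT cells without WT LPS replicate 2. Trim12c had 0.43 and 0.51 in KO LPS arrays against -0.91 and -0.77 in KO unstimulated arrays, and 0.84 and 0.56 in WT LPS arrays against -1.51 and -0.42 in WT unstimulated arrays. It rose by 1.67 ± 0.38 in WT cells (adjusted p = 0.0244), with no call when WT unstimulated replicate 1 (adjusted p = 0.0712), WT LPS replicate 1 (0.118) or WT LPS replicate 2 (0.0787) was left out. In KO cells the log2 difference was 1.32 with an adjusted p of 0.0523, on the other side of the threshold by a narrow margin. It was called there under 8 of 24 alternatives, with an adjusted p as low as 0.0184, and lost its call in WT cells under 8 of 24, with an adjusted p up to 0.213, so the call in WT cells alone depended on the processing. Trim5, which lies between Trim34a and Trim12a, passed the test in neither genotype, with log2 differences of 1.17 ± 0.49 in KO cells (adjusted p = 0.147) and 1.15 ± 0.49 in WT cells (adjusted p = 0.152).

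**Figure D2:**
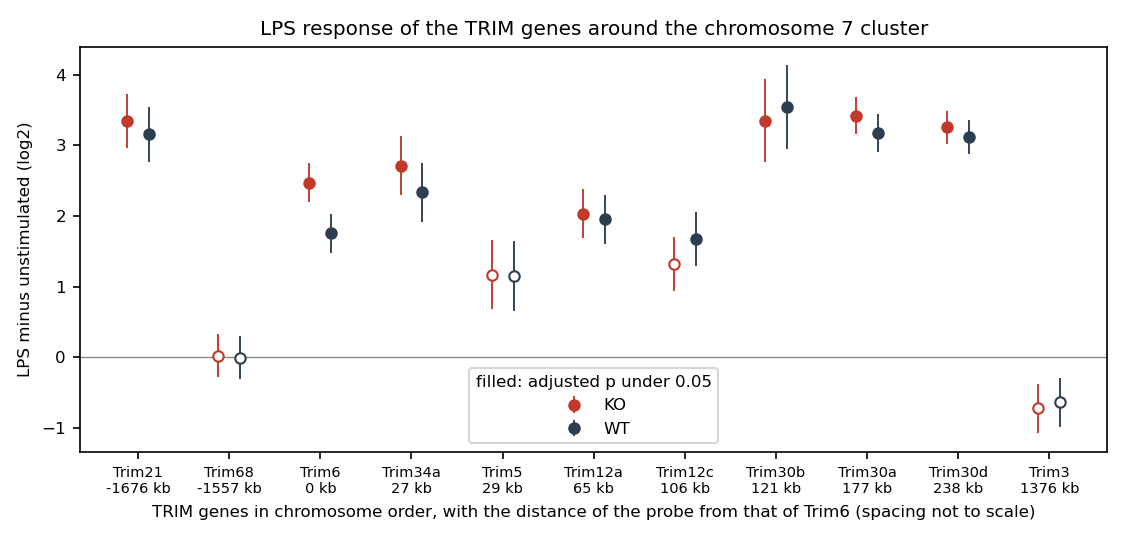
Log2 difference of LPS minus unstimulated for the TRIM genes of the chromosome 7 cluster and those nearest to it, in chromosome order, in KO cells (red, left of each pair) and WT cells (dark, right of each pair), with standard errors of the fit and 2 arrays per group. The number under a name is the distance of its probe from that of Trim6 in mm9. The 8 genes from Trim6 to Trim30d stand above 1 in both genotypes, while outside the cluster Trim21 stands at 3.35, Trim68 at 0.02 and Trim3 at -0.73 in KO cells.

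Trim21, a cytosolic receptor for antibody-coated pathogens and a ubiquitin ligase, lies on the same chromosome outside the cluster (chr7:109706597-109706656, mm9). It had 2.62 and 3.46 in KO LPS arrays against -0.27 and -0.35 in KO unstimulated arrays, and 2.67 and 3.46 in WT LPS arrays against -0.06 and -0.11 in WT unstimulated arrays. Replicate 2 was the higher LPS array in both genotypes, and no LPS array came near an unstimulated one. The rise was 3.35 ± 0.39 in KO cells (10.2-fold, adjusted p = 0.00201) and 3.16 ± 0.39 in WT cells (8.91-fold, adjusted p = 0.00270). Its neighbour Trim68 showed 0.02 ± 0.31 in KO cells and -0.01 ± 0.31 in WT cells, and Trim3, an NHL gene beyond the other end of the cluster, -0.73 ± 0.35 and -0.64 ± 0.35.

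Trim56 and Trim26, known from cytosolic nucleic acid sensing and its signalling, rose in both genotypes. Trim56, a ubiquitin ligase of DNA sensing through STING, had 2.60 and 2.13 in KO LPS arrays against 0.74 and 0.70 in KO unstimulated arrays, and 2.41 and 2.55 in WT LPS arrays against 0.69 and 1.03 in WT unstimulated arrays. It rose by 1.64 ± 0.28 in KO cells (adjusted p = 0.00810) and by 1.62 ± 0.28 in WT cells (adjusted p = 0.00922). These were not called without KO LPS replicate 1 (adjusted p = 0.0561) or without WT LPS replicate 2 (0.0584), and its other probe gave 0.94 in KO and 0.74 in WT cells. Trim26, which in human cells acts on the transcription factor IRF3, had 3.34 and 3.39 in KO LPS arrays against 2.43 and 2.40 in KO unstimulated arrays, and 3.39 and 3.73 in WT LPS arrays against 2.54 and 2.70 in WT unstimulated arrays. The groups were close but did not overlap, and the rise was 0.96 ± 0.25 in KO cells (adjusted p = 0.0371) and 0.94 ± 0.25 in WT cells (adjusted p = 0.0399). The WT call was lost whichever array was left out, with adjusted p up to 0.195, and the KO call without any array but the WT unstimulated ones, with adjusted p up to 0.169. Both were also lost with median scaling, at 0.77 in KO cells (adjusted p = 0.0971) and 0.85 in WT cells (adjusted p = 0.0744). On chromosome 17, where Trim26 lies, its neighbours Trim10, Trim15 and Trim31 were among the genes not well above background.

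Trim25 attaches ubiquitin to the RNA sensor RIG-I, and its 2 probes gave rises of different size, a difference that was not tested. The brighter probe (chr11:88881205-88881264, mm9, plus strand) stood for the gene in the tests. The other lies at chr11:88878330-88878389 on the same strand. Both are shown because the result depends on which is read.
Trim25 brighter probe: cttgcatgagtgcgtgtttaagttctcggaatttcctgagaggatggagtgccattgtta
Trim25 dimmer probe: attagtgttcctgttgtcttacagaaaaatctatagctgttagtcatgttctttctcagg

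The brighter Trim25 probe had 5.22 and 4.56 in KO LPS arrays against 2.96 and 3.66 in KO unstimulated arrays, and 4.16 and 4.37 in WT LPS arrays against 2.86 and 3.35 in WT unstimulated arrays. The LPS arrays lay above the unstimulated ones, with a rise of 1.58 ± 0.37 in KO cells (adjusted p = 0.0267) and a log2 difference of 1.16 in WT cells that was not called (adjusted p = 0.0721). The KO call was lost without KO unstimulated replicate 1 (adjusted p = 0.110) or KO LPS replicate 1 (0.143). The dimmer probe had 2.65 and 2.64 in KO LPS arrays against -1.40 and -1.47 in KO unstimulated arrays, and 3.05 and 2.85 in WT LPS arrays against 0.20 and 0.24 in WT unstimulated arrays. Its replicates were close in every group, and the unstimulated KO arrays were the lowest. With every probe fitted as a feature of its own, it rose by 4.08 ± 0.24 in KO cells (adjusted p = 0.000181) and by 2.73 ± 0.24 in WT cells (adjusted p = 0.000861), where 19.7% and 19.2% of 23738 probes were called. In unstimulated cells the dimmer probe differed between KO and WT cells by -1.66 ± 0.24 on the log2 scale, KO minus WT, with an unadjusted p of 0.000216 and an adjusted p of 0.0967, against 0.181% of probes called. It therefore did not pass the threshold. After LPS the difference was -0.30 ± 0.24, and the difference between the responses, 1.35 ± 0.34, had an unadjusted p of 0.00502 and an adjusted p of 0.999996. The brighter probe gave 0.21 ± 0.37 for the same unstimulated comparison, and this choice of probe was made after the values were seen.

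**Figure D3:**
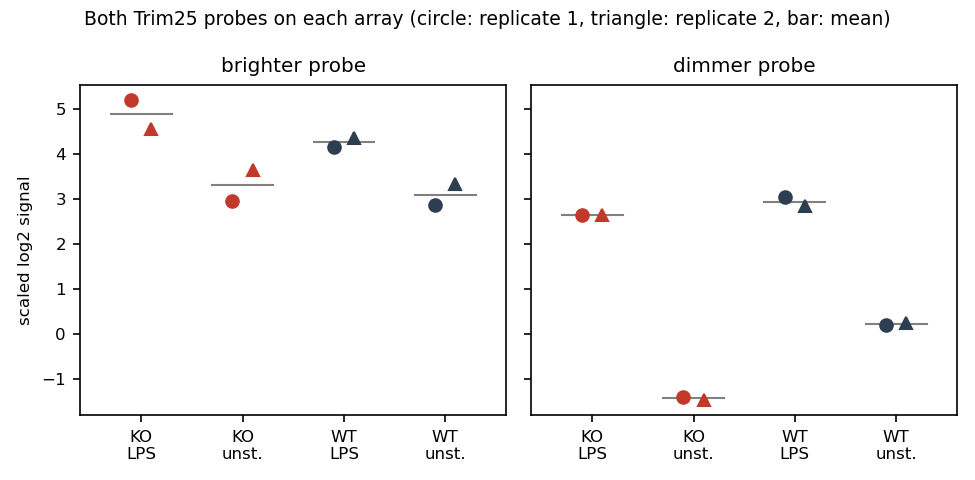
Scaled log2 signal of the brighter (left) and the dimmer (right) Trim25 probe on each array, for KO LPS, KO unstimulated, WT LPS and WT unstimulated cells. Circles are replicate 1, triangles replicate 2 and bars the mean of 2 arrays. The dimmer probe stands at -1.40 and -1.47 in KO unstimulated arrays against 0.20 and 0.24 in WT unstimulated arrays, while those groups overlap for the brighter probe.

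Other genes with several probes gave closer values. Of the 24 TRIM genes with several probes past the filter, no gene had probes called in opposite directions in either genotype. With every probe fitted as a feature of its own, some probes were called and others not for 2 genes in KO cells and for 4 in WT cells. For Trim6, 2 of 4 probes were called in KO cells and 1 of 4 in WT cells, with a lowest log2 difference of 0.84 in each. Probes of both signs occurred for 2 genes in KO cells and for 1 in WT cells. The median gap between the highest and the lowest log2 difference of a gene's probes was 0.36 in KO cells and 0.28 in WT cells. Trim25 had the widest gap, 2.50 in KO cells and 1.57 in WT cells, followed by Trim6 with 1.63 and 1.01 over 4 probes.

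The 4 genes that fell with LPS fell in both genotypes. Trim47, a SPRY gene on chromosome 11, had -0.32 and -0.32 in KO LPS arrays against 2.54 and 2.79 in KO unstimulated arrays, and 0.15 and -0.51 in WT LPS arrays against 2.77 and 2.87 in WT unstimulated arrays. All LPS arrays lay well below all unstimulated arrays, and the log2 difference was -2.98 ± 0.30 in KO cells (0.127-fold, adjusted p = 0.00112) and -3.00 ± 0.30 in WT cells (0.125-fold, adjusted p = 0.00134). Trim16, which in human cells takes part in the autophagy of damaged lysosomes, had -0.38 and -0.43 in KO LPS arrays against 1.72 and 2.24 in KO unstimulated arrays, and -0.40 and -0.80 in WT LPS arrays against 1.79 and 2.73 in WT unstimulated arrays. Again the groups did not overlap, and the log2 difference was -2.39 ± 0.38 in KO cells (adjusted p = 0.00687) and -2.86 ± 0.38 in WT cells (adjusted p = 0.00388).

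Trim2, an NHL gene known as the ubiquitin ligase of neurofilament light chain in mouse neurons, had -4.21 and -4.01 in KO LPS arrays against -2.04 and -2.57 in KO unstimulated arrays, and -4.07 and -3.76 in WT LPS arrays against -2.27 and -2.90 in WT unstimulated arrays. No LPS array overlapped the unstimulated ones, and the log2 difference was -1.80 ± 0.33 in KO cells (adjusted p = 0.0112) and -1.33 ± 0.33 in WT cells (adjusted p = 0.0331). Trim59, a ligase with a transmembrane anchor, had -2.15 and -2.24 in KO LPS arrays against -1.44 and -1.09 in KO unstimulated arrays, and -2.53 and -2.51 in WT LPS arrays against -0.99 and -1.27 in WT unstimulated arrays. Here too the groups were separate, with a log2 difference of -0.93 ± 0.26 in KO cells (adjusted p = 0.0452) and of -1.39 ± 0.26 in WT cells (adjusted p = 0.0121). These calls were the less stable ones. Trim59 in KO cells was not called whichever array was left out (adjusted p up to 0.195) and in WT cells not without WT unstimulated replicate 1 (0.0568), WT LPS replicate 1 (0.0651) or WT LPS replicate 2 (0.0648). Trim2 was not called in KO cells without KO unstimulated replicate 1 (0.0543) or KO LPS replicate 1 (0.0627). In WT cells it was lost without WT unstimulated replicate 1 (0.135), WT LPS replicate 1 (0.156), WT LPS replicate 2 (0.0896) or either KO LPS array (0.0551). There, normexp background correction with quantile normalization of the mean signal gave -0.66 (adjusted p = 0.0613).

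**Figure D4:**
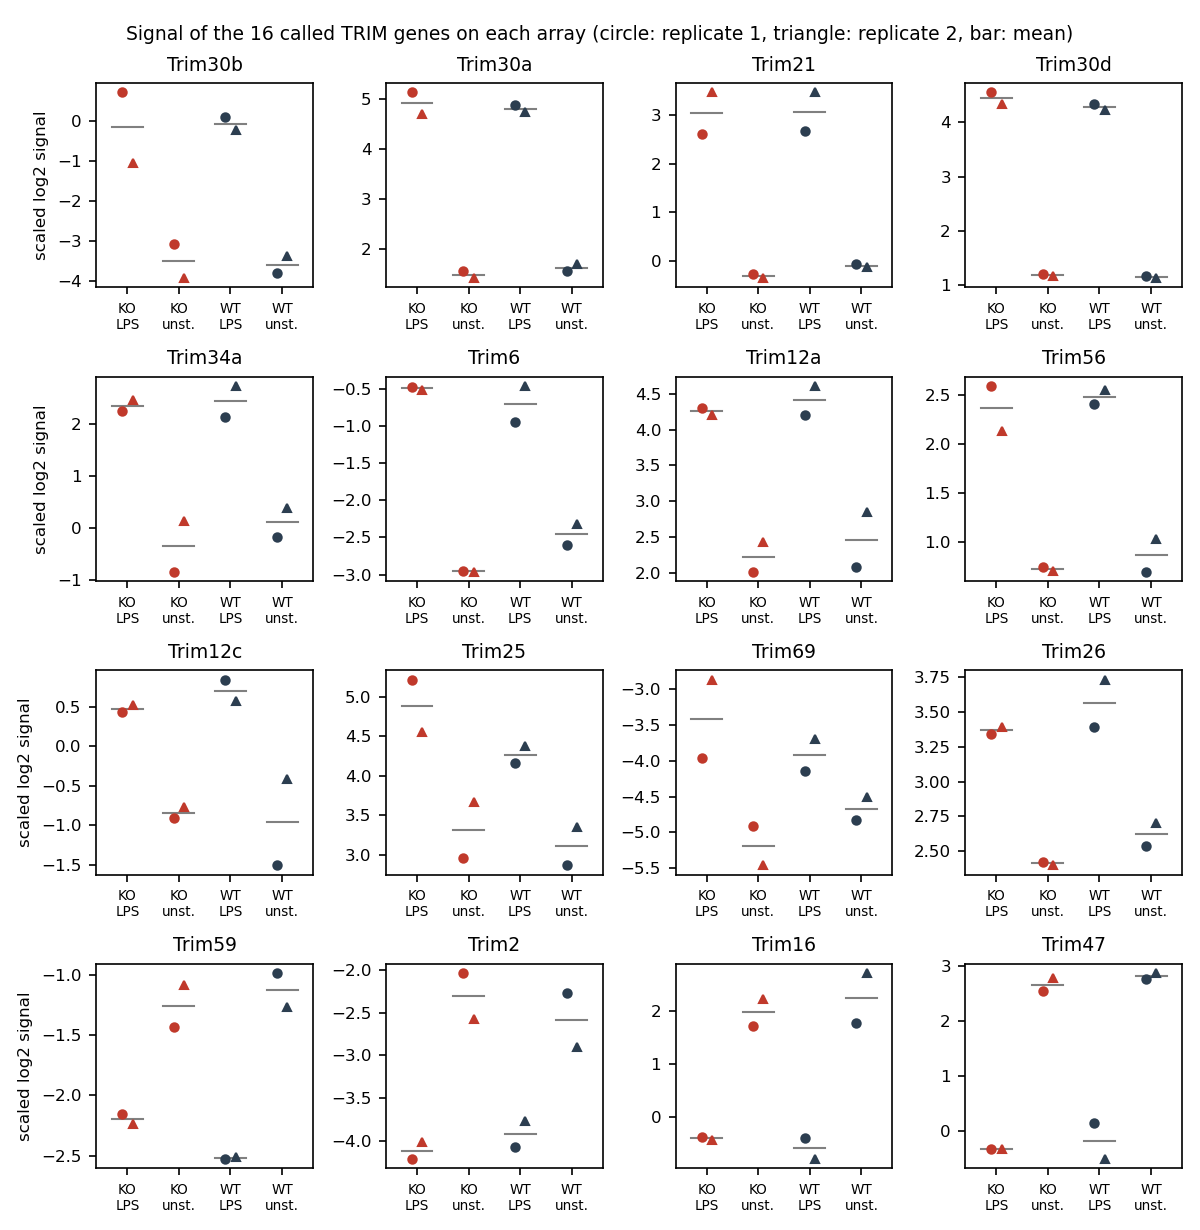
Scaled log2 signal of each of the 16 TRIM genes called in either LPS comparison, 1 panel per gene, on the KO LPS, KO unstimulated, WT LPS and WT unstimulated arrays. Circles are replicate 1, triangles replicate 2 and bars the mean of 2 arrays, and each panel has its own axis. In all 16 panels the LPS arrays of a genotype are separate from its unstimulated arrays, above them in 12 genes and below them in Trim59, Trim2, Trim16 and Trim47.

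Trim69, first known from testis, was near background. It had -3.96 and -2.86 in KO LPS arrays against -4.91 and -5.46 in KO unstimulated arrays, of which 1 was well above background, and -4.14 and -3.69 in WT LPS arrays against -4.83 and -4.50 in WT unstimulated arrays, of which neither was. It rose by 1.78 ± 0.43 in KO cells (adjusted p = 0.0281). In WT cells the bound for its rise was 1.52-fold, without a call (adjusted p = 0.261). The KO call was lost without KO unstimulated replicate 1 (adjusted p = 0.0576), KO unstimulated replicate 2 (0.149) or KO LPS replicate 2 (0.133). The KO difference was 0.44 (adjusted p = 0.184) with normexp background correction and quantile normalization of the mean signal. Trim67 was well above background on both KO LPS arrays and on no unstimulated array. The bound for its rise in KO cells was 1.47-fold, without a call (adjusted p = 0.0713). A bound is the mean of the brighter group over the lowest level marked well above background on the dimmer arrays. Where the gene's own signal was higher than that level, its own signal was used. It carries no error, and is an estimate and not a tested difference.

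Trim35, known in mouse to remove the interferon regulator IRF7, did not pass, and was singled out after its values were seen. It had 3.17 and 4.50 in KO LPS arrays against 2.04 and 2.10 in KO unstimulated arrays, and 2.95 and 4.26 in WT LPS arrays against 2.23 and 1.79 in WT unstimulated arrays. Replicate 2 was the higher LPS array in both genotypes, the erythroid markers were bright on replicate 1, and the part of either in the other was not tested. The log2 difference was 1.76 ± 0.56 in KO cells (adjusted p = 0.0707) and 1.59 ± 0.56 in WT cells (adjusted p = 0.0946). Trim37, a ligase of peroxisomes and centrioles, had log2 differences of -1.40 ± 0.50 in KO cells (adjusted p = 0.0940) and -1.57 ± 0.50 in WT cells (adjusted p = 0.0687).

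The remaining adaptor and signalling members gave smaller differences that did not pass the test. Trim14, a mitochondrial adaptor of RNA sensing, had log2 differences of 0.89 ± 0.36 in KO cells and 0.93 ± 0.36 in WT cells. Trim13, anchored in the endoplasmic reticulum, had 1.16 ± 0.40 and 0.85 ± 0.40 for the same comparisons of KO and WT cells. Trim32, an NHL gene mutated in a muscular dystrophy, had -0.59 ± 0.33 in KO and -0.98 ± 0.33 in WT cells. The 2 NHL genes Trim32 and Trim3 thus stood on the same side as Trim2 without being called. Trim8, a regulator of cytokine signalling, had -0.46 ± 0.25 in KO and -0.11 ± 0.25 in WT cells, and Trim27 -0.15 ± 0.34 in KO and -0.27 ± 0.34 in WT cells. The chromatin regulators of the PHD and bromodomain class also stayed below the threshold, with 0 of 4 called. Among all genes 20.8% were called in KO cells and 20.2% in WT cells. Trim24 had 0.68 ± 0.36 in KO and 0.46 ± 0.36 in WT cells and Trim33 0.62 ± 0.34 in KO and 0.44 ± 0.34 in WT cells. Trim28, the corepressor of zinc finger proteins that silence retroelements, had -0.35 ± 0.32 in KO and -0.24 ± 0.32 in WT cells.

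By class, 10 of 23 measured SPRY genes rose and 2 fell in KO cells, with a median log2 difference of 1.17, and 9 rose and 2 fell in WT cells, with a median of 0.94. The 8 genes of the chromosome 7 cluster were all assigned to this class, and the domains of each protein were not checked. They gave 6 of its rises in KO cells and 7 in WT cells, so the class and the cluster are not separate observations. Of the 6 measured COS genes none was called in either genotype, of 3 NHL genes 1 fell in each, of the 2 transmembrane genes 1 fell in each, and of 4 genes with no named C-terminal domain 1 rose in each. Among all genes 20.8% were called in KO cells and 20.2% in WT cells. Classes this small cannot be told from those shares. The genes that fell therefore came from 3 classes.

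A stretch known from promoters of interferon-induced genes, the interferon-stimulated response element (ISRE), was looked for as GAAANNGAAA on either strand in the 300 bases around each start site in RefSeq (GRCm38.p6), 250 before and 50 after it. Of the 56 TRIM genes, 43 had such a window. The letters occurred in 3.44% of all 32851 windows and in 3.99% of all genes with a window. They occurred in 9 of the 43 TRIM genes: in 7 of the 12 that rose in either genotype, in 1 of the 3 that fell, in 1 of the 19 measured but not called, and in none of the 9 not past the filter. Of the 7, Trim12a, Trim12c, Trim30a, Trim30d and Trim34a lie in the chromosome 7 cluster. These related genes are not separate observations. A second motif, GAS, searched as TTCNNNGAA on either strand, occurred in 8.30% of all windows, in 9.55% of all genes with a window and in 9.30% of the TRIM genes (4 of 43), none of them among the 12 that rose. A match is a description of letters, and no binding was measured. The matches are shown in 30 bases of the strand of the gene, with the motif in capitals, to compare the cluster genes with the others.
Trim30a: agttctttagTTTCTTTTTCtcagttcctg
Trim30d: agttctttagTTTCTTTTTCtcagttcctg
Trim12a: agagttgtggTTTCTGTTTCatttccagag
Trim12c: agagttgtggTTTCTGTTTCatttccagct
Trim5: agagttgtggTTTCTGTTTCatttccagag
Trim34a: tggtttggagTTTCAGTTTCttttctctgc
Trim21: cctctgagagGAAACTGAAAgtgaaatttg
Trim26: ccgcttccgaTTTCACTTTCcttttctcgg
Trim2: tcagctttggTTTCCTTTTCtctaagacag

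The Trim30a and Trim30d stretches were identical letter for letter (chr7:104465210-104465239 and chr7:104507871-104507900), as were those of Trim12a and Trim5 (chr7:104315466-104315495 and chr7:104288136-104288165). Trim5 carried the letters and was not called. Trim21 (chr7:102565450-102565479) and Trim26 (chr17:36836976-36837005) each held a second, overlapping match, and Trim30a another at a second start site. Those of Trim12c, Trim34a and Trim2 lie at chr7:104353359-104353388, chr7:104244457-104244486 and chr3:84212791-84212820, and Trim2 is a gene that fell.

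No TRIM gene was called between KO and WT cells. In unstimulated cells 0 of 45 were called in KO against WT by limma, where 0.240% of all genes were, and 1 had an unadjusted p under 0.05. After LPS 0 were called, where 0.0260% of all genes were, and 0 had such an unadjusted p. Averaged over both states 0 were called, against 0.143% of all genes, with 1 at an unadjusted p under 0.05. For the difference between the LPS responses 0 were called, against 0.0455% of all genes, with 0 at an unadjusted p under 0.05. With so few genes called in all, the absence of calls among 45 genes is close to the background, and 2 arrays per group limit the precision. The KO and WT arrays did not overlap for 8 TRIM genes in unstimulated cells, where 21.0% of all genes did the same, and for 9 after LPS, where 21.2% did. The median difference of KO minus WT was -0.06 over the TRIM genes and -0.04 over all genes in unstimulated cells, and 0.04 and -0.01 after LPS.

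The smallest unadjusted p belonged to Trim66, the testis-rich relative of Trim24, Trim28 and Trim33. It had -5.51 and -5.61 in KO LPS arrays, neither well above background, -4.71 and -6.03 in KO unstimulated arrays, -4.49 and -4.69 in WT LPS arrays and -3.42 and -4.29 in WT unstimulated arrays. The KO arrays lay below the WT arrays in each state, with a difference of KO minus WT of -1.51 ± 0.49 in unstimulated cells (unadjusted p = 0.0176, adjusted p = 0.99987) and an unadjusted p of 0.00901 over both states (adjusted p = 0.99994), all close to background. In unstimulated cells 1 of its 2 arrays was well above background in each genotype. The signal floor was higher on the WT unstimulated arrays, as Trim60 showed. Its part in the unstimulated differences of genes near background was not tested. After LPS, the bound for Trim66 was 1.65-fold, lower in KO cells, without a call (adjusted p = 0.99975). In unstimulated cells it was followed by Trim6 at -0.50 ± 0.27, Trim67, Trim54 at -0.53 ± 0.42 and Trim13 at -0.49 ± 0.40, with unadjusted p between 0.113 and 0.257. None of these passed, Trim67 was well above background in neither unstimulated group, and Trim54 on 1 of 2 WT unstimulated arrays. Trim9 was near background, and was well above it on both KO LPS arrays, on 1 KO unstimulated and 1 WT LPS array and on no WT unstimulated array. After LPS, Trim9 differed by 1.30 ± 0.63 (unadjusted p = 0.0792), Trim25 by 0.62 ± 0.37, Trim67, well above background on 1 of 2 WT LPS arrays, by 0.62 ± 0.38 and Trim59 by 0.33 ± 0.26. Over both states the next after Trim66 were Trim67 (unadjusted p = 0.0566), Trim25 at 0.41 ± 0.26, Trim9 and Trim13 at -0.34 ± 0.28. For the difference between the LPS responses, KO minus WT, the smallest after Trim6 were Trim69 and Trim9, Trim59 at 0.46 ± 0.36 and Trim8 at -0.35 ± 0.35, each with an adjusted p of 0.99999. No size is given for Trim9, Trim67 and Trim69 where a group in the comparison had no array well above background.

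Family members filed under other names, partners and interferon-stimulated genes were read beside the TRIM genes by count. Among all genes 10.4% rose and 10.5% fell in KO cells, and 9.48% rose and 10.7% fell in WT cells. Of Pml, Mefv, Mid1 and Mid2, 3 were measured and 2 rose in each genotype: Pml, the organiser of nuclear bodies, by 1.79 ± 0.39 in KO cells and 1.61 ± 0.39 in WT cells, and Mefv, the pyrin inflammasome sensor, by 5.24 ± 0.91 in KO cells and 4.34 ± 0.91 in WT cells. Of 22 signalling partners of TRIM proteins, 10 rose and 1 fell in KO cells and 9 rose and 1 fell in WT cells. Among them Ddx58, which encodes the TRIM25 target RIG-I, rose by 3.87 ± 0.34 in KO and 3.35 ± 0.34 in WT cells, while Mavs, the adaptor below it, had -0.57 ± 0.34 and -0.85 ± 0.34 and was not called. Of 13 ubiquitin-conjugating enzymes used by RING ligases 1 rose in each genotype, Ube2l6, by 3.72 ± 0.26 in KO cells and 3.67 ± 0.26 in WT cells. Of 34 interferon-stimulated genes all 34 rose in KO cells, with a median of 5.75, and 33 rose in WT cells, with a median of 4.71, against medians of 0.49 and 0.28 for the TRIM genes. In the unstimulated state 2 of these 34, Rtp4 and Xaf1, were lower in KO than in WT cells, where 0.240% of all genes were called. The median difference of the 34 in that state was -0.97, against -0.06 for the TRIM genes. After LPS the medians were -0.13 and 0.04, and Xaf1 still stood at -2.82 ± 0.27 without a call.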

How the data were processed

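RNA of sorted cells was labelled with Cy3 and hybridised to 8 one-colour Agilent arrays of 60-base probes. Scans had been read by the authors in Agilent Feature Extraction, version 10.5.1.1 per the file headers, with probe coordinates on mm9, and the deposited intensity values are the processed signal, mean signal and local background of each spot, unscaled between arrays. Deposited spot flags of 0 or 1, an other unit, mark spots well above background, saturated or outlying. The deposited series table holds log2 values equal to the log2 processed signal minus a constant per array, used as an alternative.

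Outlying spots (120 to 174 per array) and controls were left out, no spot was saturated, and the log2 signal was set relative to the 75th percentile of each array. The probe with the highest mean signal among those past the filter stood for a gene. Group means were fitted with limma 3.58.1 in R 4.3.3 over 15401 genes, with 4 residual and 2.88 prior degrees of freedom, for 6 comparisons. All 4 groups entered each fit. P-values were adjusted by the Benjamini-Hochberg method. Groups came from the sample labels.

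Members, gene lists, domain classes and alternatives were chosen with earlier results of these data known. Named with values are all called TRIM genes, the 5 smallest p-values where no gene was called between genotypes, and a fixed list of known members. Alternatives covered background correction, scaling, filter, probe choice, slide, replicate number and leaving out arrays. Of the 56 genes, 43 matched a RefSeq promoter. The fit was checked on artificial data before use.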

Additional observations from a re-analysis of the deposited data

How the results depend on the processing

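Over 25 alternatives to the main settings, none of the 29 gene-level LPS calls changed direction, and 8 of the 29 stayed under an adjusted p of 0.05 in every alternative that gave a value. In the comparisons of the genotypes 0 TRIM genes were called by limma under every alternative. Leaving out 1 array at a time gave 8 to 12 rises and 2 to 4 falls in KO cells, and 6 to 10 rises and 2 to 5 falls in WT cells. Without both replicate 2 arrays after LPS there were 7 rises and 1 fall in KO cells and 4 rises and 2 falls in WT cells. Without both replicate 1 arrays, where the erythroid markers were bright, there were 9 rises and 1 fall in KO cells and 7 rises and 2 falls in WT cells. These omissions were chosen after seeing the data, and leave 1 LPS array per genotype, assumed to vary like the other groups. Within slide 2 there were 2 rises and 0 falls in KO cells, and within slide 1 there were 6 rises and 2 falls in WT cells. These settings fit fewer arrays.

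With the replicate number as a replicate block, 14 rose and 6 fell in KO cells and 11 rose and 6 fell in WT cells, and 0 were called between genotypes. The labels do not say what the numbers share. The deviations of same-numbered arrays from their group means correlated between 0.0131 and 0.692 over the 6 pairs of groups. Called with the block and not without it were Trim12c, Trim29, Trim35, Trim37 and Trim67 in KO cells and Trim32, Trim37 and Trim67 in WT cells, with Trim12c in KO cells at an adjusted p of 0.0421. No call was lost under the block.

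Differences that changed sign were all uncalled. Trim27 became 0.14 in KO cells with slide as a term and 0.13 without KO unstimulated replicate 2 or within slide 2. Leaving out arrays gave -0.43 to 0.13 in KO cells and -0.57 to 0.03 in WT cells. In WT cells it became 0.0217 with slide as a term and 0.0312 without WT LPS replicate 1, without both replicate 1 arrays after LPS, or within slide 1. Trim28 became 0.0767 in WT cells (range over omitted arrays -0.562 to 0.0767) without WT unstimulated replicate 1. Trim25 over both states became -0.28 with the mean of its probes. With every probe fitted, the probe with the smallest adjusted p stood for a gene, so another probe could be read. Trim25 was then read from its dimmer probe, at -0.98. Trim6 was read from a dimmer probe, at 0.15 in unstimulated cells and -0.00379 for the difference of the responses. The brighter Trim25 probe became -0.04 without WT unstimulated replicate 1 and -0.15 without KO unstimulated replicate 2 in the unstimulated comparison, with 0.56 as its highest value there. The dimmer Trim25 probe stayed between -1.72 and -1.19 there, with adjusted p from 0.0711 to 0.593. The gene-level shifts of Trim25 and Trim6 came with a change of the probes read. Why the probes differed, and the cause of the other shifts, was not tested.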
